A study of Homo sapiens with 18 samples.

Results

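The integrated stress response genes described here are ATF4, ATF5, DDIT3, CEBPB, CEBPG, ATF3, TRIB3, NUPR1, CHAC1 and PPP1R15A, 10 of the 56269 genes in the expression table. They were chosen by symbol from common knowledge of the ATF4 and CHOP pathway (CHOP is the protein of DDIT3), and each symbol had 1 row. All 10 passed the filter on low values, a mean of at least 10 over the 18 libraries, which 13686 genes passed.

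The integrated stress response starts when kinases that sense misfolded protein, amino acid shortage, viral RNA or heme and mitochondrial stress phosphorylate the translation factor eIF2 on its alpha subunit. Most translation then slows, while mRNAs with suitable upstream reading frames, ATF4 among them, are translated better. The ATF4 protein raises transcription of amino acid genes and of further transcription factors such as CHOP and ATF3, and PPP1R15A closes the loop by bringing a phosphatase back to eIF2. Only mRNA was measured here, so eIF2 phosphorylation and the translation of ATF4 are outside the data.

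The libraries were made from IMR90 cells, an established strain of human lung fibroblasts, to ask how the polymer length of hyaluronan (HA), a long sugar polymer of the extracellular matrix, changes the transcriptome of cells under oxidative stress. The pre-incubation lasted 6 h and used PBS alone, cNSF-HA at 20 μg/ml or fNSF-HA at 20 μg/ml. Both HA preparations came from naked mole-rat skin fibroblasts, cNSF-HA being the control that was heated with inactivated hyaluronidase and fNSF-HA the same HA partly cut by the active enzyme. In 3 further groups (PBS + tBHP, cNSF-HA + tBHP and fNSF-HA + tBHP) the medium was removed, and the cells were exposed to 200 μM tBHP, an organic peroxide, for 1 h. These cells were collected 6 h after the exposure began, whereas the groups without tBHP were collected at the end of the pre-incubation. The effect of tBHP and that of the later collection and medium change therefore cannot be told apart, and "response to tBHP" below stands for both.

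Each of the 6 groups had 3 replicates, which the study's methods describe in general terms as biological. The p-values weigh group differences against the spread between these samples. All samples came from the same cell strain, so differences between donors are outside the data. The unit is the normalized count, the reads counted on a gene divided by the size factor of its library. Libraries held between 20261103 and 26287660 reads on genes. Of the fibroblast markers, 9 of 9 were at 10 or more in every library, whereas the summed values of 5 epithelial, 3 endothelial, 3 leukocyte and 3 muscle markers stayed between 0 and 38.1. The endothelial sum was 3.73 to 14.8 without tBHP and 13.1 to 25.1 after it, and the muscle sum 13.4 to 25.1 and 19.1 to 38.1, and their part in the results was not tested. The median SD within groups over all genes tested was 0.063 to 0.070 on the log2 scale without tBHP and 0.153 to 0.221 after it. In RNA from many cells, a change in every cell and a change in the share of cells that respond cannot be told apart.

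In the GRCh38 assembly (GENCODE 29), ATF4 lies at chr22:39519695-39522685, ATF5 at chr19:49928702-49933935, DDIT3 at chr12:57516588-57521737, CEBPB at chr20:50190734-50192689 and CEBPG at chr19:33373330-33382686. ATF3 lies at chr1:212565334-212620777, TRIB3 at chr20:362835-397559, NUPR1 at chr16:28532708-28539174, CHAC1 at chr15:40952962-40956519 and PPP1R15A at chr19:48872392-48876057. DDIT3 and NUPR1 are on the minus strand and the other 8 genes on the plus strand. DDIT3 shares 355 exon bases, 27.2% of its exon length, with MARS on the opposite strand, and ATF5 shares 626 bases, 21.2%, with NUP62 on the opposite strand. The library kit does not mark strand and the strand setting of the counting is not given in the sources used here, so the counts of these pairs are uncertain where the exons overlap.

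The 10 genes moved together, and 3 short motifs known to bind factors of their own family were searched in the 250 bases upstream of RefSeq transcript starts on both strands (35116 promoter entries, of which 18 belong to 9 of the genes, GRCh38.p14). NUPR1 had no entry. TGATGNAA, the core of the element bound by C/EBP and ATF4 dimers, was found in 3.14% of all promoter entries and in 1 entry each of ATF3, CHAC1 and CEBPG. TGACGTCA, the full cAMP response element, was found in 1.65% of all entries and in that of PPP1R15A. TGANTCA, the AP-1 site, was found in 6.57% of all entries, in 2 overlapping entries of DDIT3 that hold the same site and in 1 of ATF5. The entries of ATF4, CEBPB and TRIB3 held none of these letters. A match is a description of sequence and not evidence that a factor binds there. The 30 bases around each site are shown in gene orientation with the motif in capitals, for TGATGNAA at chr1:212565205-212565234 (ATF3, 191 bases upstream of the start), chr15:40953251-40953280 (CHAC1, where the motif reads on the opposite strand, 209 bases) and chr19:33374060-33374089 (CEBPG, 42 bases). The AP-1 sites are at chr12:57520735-57520764 (DDIT3, minus strand) and chr19:49928707-49928736 (ATF5). Distances are counted from the RefSeq transcript starts. By the gene spans given above, the printed sites of CHAC1, CEBPG, DDIT3 and ATF5 lie inside the gene, downstream of its annotated start. The printed ATF3 site lies upstream of the annotated ATF3 gene start.
ATF3: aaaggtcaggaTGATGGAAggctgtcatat
CHAC1: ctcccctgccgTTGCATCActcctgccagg
CEBPG: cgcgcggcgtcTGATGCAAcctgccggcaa
DDIT3: gcgcgcgcaTGACTCAcccacctcctccgt
ATF5: ggagagtgctgTGACTCAtgctggactcta

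For PPP1R15A, whose cAMP response element begins 58 bases upstream of the RefSeq start, the promoter at chr19:48872171-48872391 (plus strand) is shown up to the base before the gene start in GENCODE 29, with the element in capitals.
PPP1R15A: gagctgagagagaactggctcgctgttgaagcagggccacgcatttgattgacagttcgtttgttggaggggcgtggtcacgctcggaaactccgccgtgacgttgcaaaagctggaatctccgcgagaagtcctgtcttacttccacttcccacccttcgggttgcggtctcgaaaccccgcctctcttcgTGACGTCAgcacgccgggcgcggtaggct

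All 10 genes rose after tBHP in each of the 3 pre-incubations (limma with a mean-variance trend on log2(normalized count + 1), all 18 libraries, two-sided, Benjamini-Hochberg adjustment over the 13686 genes, threshold 0.05). By the same test 24.2%, 24% and 19.2% of all genes rose after PBS, cNSF-HA and fNSF-HA. The 10 genes had a median log2 difference of 2.12, 2.06 and 1.78 after PBS, cNSF-HA and fNSF-HA, against 0.0043, -0.00053 and -0.034 over all genes tested. The libraries with and without tBHP did not overlap for any of the 10 genes in PBS and cNSF-HA cells, and for 9 of them in fNSF-HA cells, where ATF5 overlapped. Of all genes tested, 31.8%, 31.4% and 22.6% were higher without overlap after PBS, cNSF-HA and fNSF-HA, and 63.8%, 63.7% and 48.7% did not overlap in either direction. By size of the rise in PBS cells among the 13686 genes, ATF3 ranked 6, TRIB3 7, DDIT3 29, NUPR1 49, CHAC1 51, CEBPB 86, PPP1R15A 185, ATF4 226, CEBPG 274 and ATF5 1766.

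**Figure D1:**
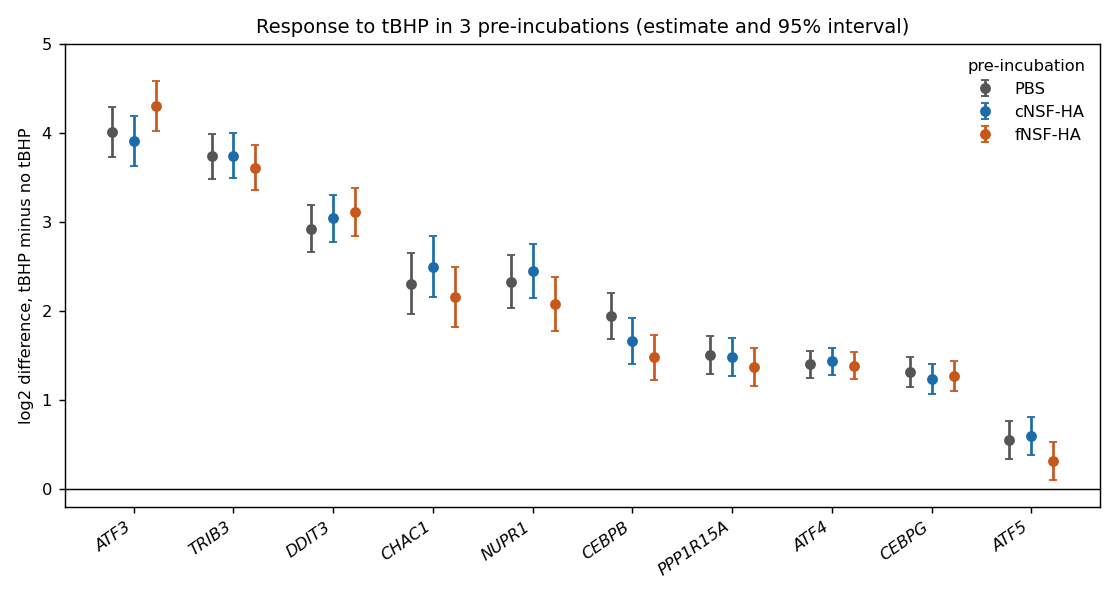
Log2 difference between cells with and without tBHP (vertical axis) for each of the 10 genes, in PBS (grey), cNSF-HA (blue) and fNSF-HA cells (orange), with the 95% interval of limma. Every interval lies above 0, from ATF5 at 0.31 to 0.59 up to ATF3 at 3.91 to 4.30, and within each gene the 3 intervals overlap.

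ATF4 and ATF5 encode related bZIP factors whose mRNAs, like those of DDIT3 and PPP1R15A, carry upstream reading frames that favour their translation when eIF2 is phosphorylated. ATF4 read 5605, 5462 and 5444 normalized counts in PBS replicates 1 to 3, 6036, 5509 and 5351 in cNSF-HA and 5648, 5581 and 5339 in fNSF-HA. After tBHP it read 15031, 13760.4 and 14762 in PBS, 13934, 15065 and 16648 in cNSF-HA and 14535, 13331 and 15456 in fNSF-HA. Every library after tBHP was thus above every library without it, and the pre-incubations overlapped on either side. The rise was 2.64-fold in PBS cells (log2 difference 1.40 ± 0.07 SE, adjusted p = 5.76e-11 in limma), 2.70-fold in cNSF-HA cells and 2.61-fold in fNSF-HA cells.

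ATF5 had the smallest rise of the 10. It read 542, 505 and 493 in PBS, 510.5, 497 and 508 in cNSF-HA and 509, 478 and 484 in fNSF-HA. With tBHP the values were 826, 673 and 765 in PBS, 748, 709 and 824 in cNSF-HA and 659, 508 and 669 in fNSF-HA. In fNSF-HA cells replicate 2 after tBHP, at 508, lay below replicate 1 without it, at 509, so those groups overlapped. The log2 difference was 0.55 ± 0.10 in PBS cells (1.47-fold, adjusted p = 0.000216 in limma), 0.59 ± 0.10 after cNSF-HA and 0.31 ± 0.10 after fNSF-HA (1.24-fold, adjusted p = 0.0210). The last call depended on the libraries: without 1 of 4 libraries in turn (fNSF-HA replicate 2 or 3, fNSF-HA + tBHP replicate 1 or 3) the adjusted p in limma rose to between 0.0593 and 0.0998. NUP62, which overlaps ATF5, differed by 0.08 in PBS cells (adjusted p = 0.464).

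CHOP, the product of DDIT3, is a bZIP protein that pairs with C/EBP proteins and drives expression of stress and cell death genes. DDIT3 read 201, 174 and 155 in PBS, 167, 166 and 159 in cNSF-HA and 179, 157 and 153 in fNSF-HA. In the tBHP groups it read 1284, 1234 and 1523 in PBS, 1146, 1294 and 1679 in cNSF-HA and 1356, 1370.1 and 1528 in fNSF-HA. The lowest library after tBHP, cNSF-HA + tBHP replicate 1, was still far above the highest without it, PBS replicate 1. DDIT3 rose 7.59-fold in PBS cells (log2 2.92 ± 0.13, adjusted p = 5.86e-12 in limma), 8.22-fold in cNSF-HA cells and 8.66-fold in fNSF-HA cells. MARS, methionyl-tRNA synthetase, which is itself a target of ATF4 and overlaps DDIT3, rose by 0.87 on the log2 scale in PBS cells, from 4368 ± 109 to 8009.6 ± 336 (SD, n = 3).

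CEBPB and CEBPG encode C/EBP proteins that pair with CHOP and with ATF4. CEBPB read 369.8, 377 and 374 in PBS, 427, 438 and 433 in cNSF-HA and 417, 388 and 384 in fNSF-HA. After tBHP it read 1628, 1371 and 1324 in PBS, 1186, 1324 and 1648 in cNSF-HA and 1089, 931 and 1328 in fNSF-HA. All 9 libraries after tBHP were above all 9 without it, and within the tBHP libraries fNSF-HA held the lowest 2 values. CEBPB rose 3.84-fold in PBS cells (log2 1.94 ± 0.12, adjusted p = 7.48e-10 in limma), 3.17-fold in cNSF-HA cells and 2.78-fold in fNSF-HA cells.

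CEBPG ranged from 700.1 to 862 over the 9 libraries without tBHP and from 1714 to 2186 over the 9 after it. It rose 2.48-fold in PBS cells (log2 1.31 ± 0.08, adjusted p = 6.14e-10 in limma), 2.36-fold in cNSF-HA cells and 2.40-fold in fNSF-HA cells. DDIT3 therefore rose more than either partner gene. Per exon base, the ratio of DDIT3 to CEBPB went from 0.709 ± 0.097 in PBS to 1.42 ± 0.28 in PBS + tBHP (SD, n = 3), from 0.568 ± 0.018 to 1.48 ± 0.04 in cNSF-HA cells and from 0.615 ± 0.026 to 1.93 ± 0.25 in fNSF-HA cells. The ratio of DDIT3 to CEBPG went from 0.80 ± 0.15 to 2.44 ± 0.30 in PBS cells, from 0.696 ± 0.016 to 2.45 ± 0.32 in cNSF-HA cells and from 0.660 ± 0.065 to 2.40 ± 0.35 in fNSF-HA cells. For both ratios no library after tBHP overlapped any library without it, and the ratios were given as descriptions with no test.

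ATF3, TRIB3 and NUPR1 are further nuclear or signalling products of the pathway. ATF3, a bZIP factor of immediate stress responses that ATF4 and other stress pathways induce, was the scarcest of the genes without tBHP, at 37.7, 41.1 and 33.7 in PBS, 32.4, 42.0 and 39.3 in cNSF-HA and 26.5, 30.5 and 35.4 in fNSF-HA. The tBHP libraries read 571, 662 and 623 in PBS, 514, 619 and 619 in cNSF-HA and 561, 648 and 659 in fNSF-HA. The rise was the largest of the 10 in every pre-incubation, 16.1-fold in PBS cells (log2 4.01 ± 0.13, adjusted p = 3.26e-13 in limma), 15.1-fold in cNSF-HA cells and 19.7-fold in fNSF-HA cells.

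TRIB3 is a pseudokinase that binds ATF4 and CHOP and limits their activity. It ranged from 268 to 292 over the 9 libraries without tBHP. After tBHP it read 4388, 3262 and 3756 in PBS, 3506, 3700.2 and 4144 in cNSF-HA and 3426, 2764 and 4135 in fNSF-HA. The rise was 13.3-fold in PBS cells (log2 3.74 ± 0.12, adjusted p = 2.35e-13 in limma), 13.4-fold in cNSF-HA cells and 12.2-fold in fNSF-HA cells, and the spread after tBHP was wider, with an SD of 565 against 11.1 normalized counts in PBS cells.

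NUPR1, a small nuclear protein of the stress response, ranged from 462 to 556 without tBHP and from 1722 to 3483 after it. It rose 5.03-fold in PBS cells (log2 2.33 ± 0.14, adjusted p = 6.14e-10 in limma), 5.47-fold in cNSF-HA cells and 4.22-fold in fNSF-HA cells. The highest library was cNSF-HA + tBHP replicate 3 and the lowest of the tBHP libraries was fNSF-HA + tBHP replicate 2.

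CHAC1 and PPP1R15A encode effectors, CHAC1 an enzyme that breaks down glutathione and PPP1R15A (GADD34) the inducible subunit that directs protein phosphatase 1 to eIF2. CHAC1 ranged from 555 to 654 without tBHP. After tBHP it read 3871, 2669.6 and 3026 in PBS, 3178, 3421 and 3511 in cNSF-HA and 3070.0, 1899.9 and 3512 in fNSF-HA. The groups with and without tBHP were far apart, and 1 library, fNSF-HA + tBHP replicate 2, lay below the other 8 tBHP libraries. CHAC1 rose 4.95-fold in PBS cells (log2 2.31 ± 0.16, adjusted p = 3.49e-09 in limma), 5.64-fold in cNSF-HA cells and 4.46-fold in fNSF-HA cells.

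PPP1R15A ranged from 2159 to 2403 without tBHP and from 4791 to 7051 after it. The rise was 2.84-fold in PBS cells (95% interval of the log2 difference 1.29 to 1.72, adjusted p = 2.08e-09 in limma), 2.79-fold in cNSF-HA cells and 2.59-fold in fNSF-HA cells. Its constitutive counterpart PPP1R15B, named after its values were seen, differed by 0.08 in PBS cells (adjusted p = 0.532), -0.07 in cNSF-HA cells (adjusted p = 0.568) and 0.10 in fNSF-HA cells (adjusted p = 0.489).

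**Figure D2:**
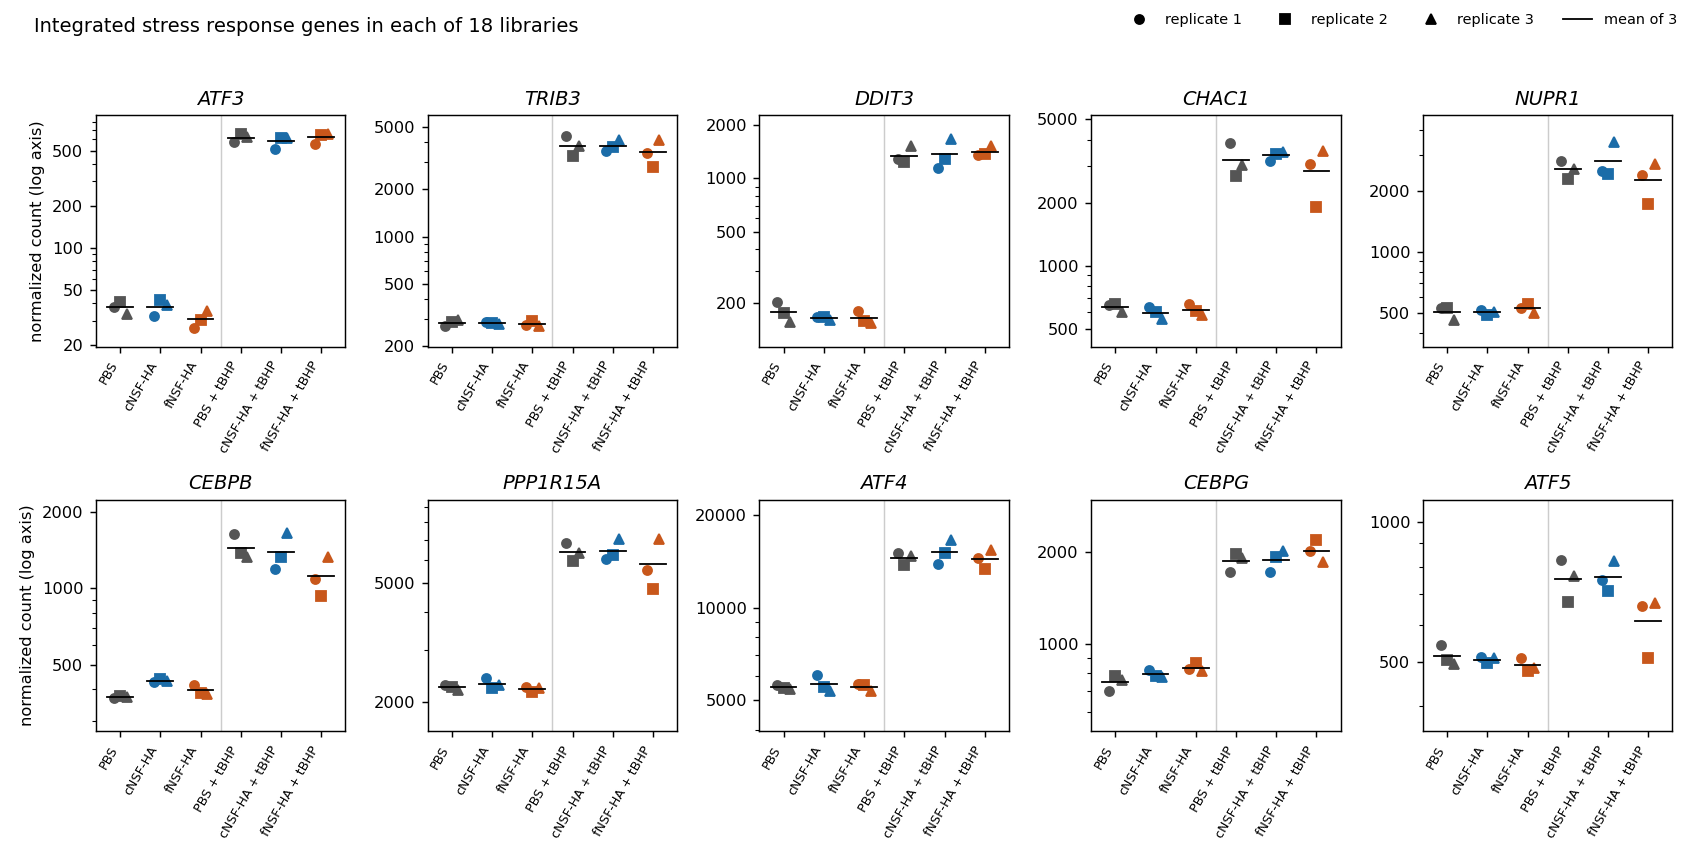
Normalized counts (logarithmic vertical axis) of each of the 10 genes in the 18 libraries by group (horizontal axis), with a symbol for each replicate and a line at the mean of 3; grey is PBS, blue cNSF-HA and orange fNSF-HA. The tBHP groups, right of the vertical line, sit above the others except for ATF5 in fNSF-HA + tBHP replicate 2 (508), and that library (orange square) is the lowest of the 9 tBHP libraries for 7 of the 10 genes.

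Ordered by the mean log2 rise over the 3 pre-incubations, the genes ran ATF3 (4.07), TRIB3 (3.70), DDIT3 (3.03), CHAC1 (2.32), NUPR1 (2.29), CEBPB (1.69), PPP1R15A (1.45), ATF4 (1.40), CEBPG (1.27) and ATF5 (0.48). Each gene was above the next in all 3 pre-incubations, except for CHAC1 against NUPR1 and PPP1R15A against ATF4, whose order held in 2 of 3. In PBS cells the estimates of those pairs differed by -0.02 and 0.11, less than or close to the SE of either estimate. ATF4 and CEBPG differed by 0.09 in PBS cells, also close to their SE. ATF3 and TRIB3 differed by 0.17 in cNSF-HA cells (SE 0.13 and 0.12). CEBPB and PPP1R15A differed by 0.11 in fNSF-HA cells (SE 0.12 and 0.10). Differences between genes were not tested.

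The order of levels was another one. In RPKM (reads divided by the length of the union of annotated exons and by library depth), ATF4 was highest in PBS at 99.3 ± 1.5, followed by PPP1R15A at 32.8 ± 0.5 and CHAC1 at 14.0 ± 0.6 (SD, n = 3). CEBPB at 8.66 ± 0.08, ATF5 at 7.88 ± 0.38 and CEBPG at 7.71 ± 0.46 came next, the last pair within their spread, and then DDIT3 at 6.13 ± 0.79, NUPR1 at 4.05 ± 0.30, TRIB3 at 3.73 ± 0.15 and ATF3 at 0.421 ± 0.040. NUPR1 and TRIB3 also overlapped within their spread. After tBHP in PBS cells the order was ATF4 at 250.4 ± 10.05, PPP1R15A at 89.2 ± 5.3, CHAC1 at 67.1 ± 11.9, TRIB3 at 48.0 ± 6.5, DDIT3 at 44.7 ± 5.6, CEBPB at 31.9 ± 3.1, NUPR1 at 19.5 ± 1.7, CEBPG at 18.3 ± 1.6, ATF5 at 11.1 ± 1.0 and ATF3 at 6.64 ± 0.58. TRIB3 and DDIT3, and NUPR1 and CEBPG, were within their spread of each other, and on this length TRIB3 and DDIT3 moved past CEBPB, CEBPG and ATF5. Divided by the median annotated transcript length in place of the exon union, the PBS level of NUPR1 was 38.4 and that of ATF5 28.1. On this length TRIB3 (9.84) was already above CEBPB (8.66) and CEBPG (8.55) without tBHP, and DDIT3 (8.68) was close to both. In PBS + tBHP, TRIB3 (126.6) and DDIT3 (63.3) were above ATF5 (39.5), so the move past ATF5 held on both lengths. The places of these genes without tBHP, and the move of TRIB3 and DDIT3 past CEBPB and CEBPG, depend on the length used.

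Over the 18 libraries, the 3 genes whose log2 values, centred on their own mean, were closest to those of ATF4 among 10312 genes with a mean of at least 100 were GPT2 (root mean square difference 0.071), CARS (0.071) and FTH1 (0.081), and PPP1R15A ranked 5. For DDIT3 the closest were CDKN1A (0.155), NDRG1 (0.170) and SESN2 (0.171). For ATF3 they were TRIB3 (0.292), AKR1C1 (0.339) and DDIT4 (0.468). The difference between libraries with and without tBHP dominates this measure, so it mostly ranks genes by how alike their rises were.

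The other genes of the pathway were taken from lists written by hand, and each is given by its counts in PBS cells. Of 30 ATF4 and CHOP targets in amino acid supply, 28 rose, 2 fell and 0 did not pass the threshold, with a median log2 difference of 1.23 against 0.0043 over all genes. The largest rises among genes with a mean of at least 100 were those of the glycine transporter SLC6A9 (158 ± 5 to 1115 ± 231, SD, n = 3, log2 2.79), the cystine transporter SLC7A11 (1399.8 ± 120 to 8935 ± 1242, log2 2.67) and PCK2, the mitochondrial phosphoenolpyruvate carboxykinase (438 ± 8 to 1961 ± 282, log2 2.15). ALDH18A1, an enzyme of proline synthesis, fell by 0.49 on the log2 scale and SLC38A2, a neutral amino acid transporter, fell by 0.40. In cNSF-HA cells 27 of the 30 rose and 2 fell, and in fNSF-HA cells 26 rose and 1 fell. Of all genes tested, 24.2%, 24% and 19.2% rose and 26.9%, 26.8% and 22.7% fell after PBS, cNSF-HA and fNSF-HA.

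Of 17 tested targets in signalling and cell fate, 15 rose and 0 fell in PBS cells, with a median of 1.73 against 0.0043 over all genes. In each HA group 15 rose as well, where 24.2% (PBS), 24% (cNSF-HA) and 19.2% (fNSF-HA) of all genes rose. GDF15, a secreted stress factor of the TGF-beta family, rose from 38.6 ± 3.8 to 4061 ± 1128 (log2 6.65 ± 0.28 SE), INHBE, an inhibin subunit, from 10.7 ± 2.9 to 231 ± 30 (log2 4.34), and ADM2, a peptide hormone, from 57.0 ± 2.5 to 633 ± 91 (log2 3.44). The genes that did not pass in PBS cells were BCL2L11, encoding the cell death protein BIM (-0.12, adjusted p = 0.609), and ERO1A, an oxidase of the endoplasmic reticulum (-0.14, adjusted p = 0.369). These 2 were named after their values were seen. FGF21 was below the filter.

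Of 19 genes of eIF2 signalling itself, 3 rose, 8 fell and 8 did not pass in PBS cells, where 24.2% of all genes rose and 26.9% fell. Their median was -0.06, against 0.0043 over all genes. EIF2S2, the beta subunit of eIF2, rose from 2811 ± 70 to 4548 ± 489 (log2 0.69), DNAJC3, an inhibitor of eIF2 kinases, rose by 0.43 and EIF2B4, a subunit of the exchange factor, by 0.19. EIF2AK2, the kinase PKR, fell from 1888 ± 142 to 1195 ± 118 (by 0.66 on the log2 scale), and IMPACT, an inhibitor of the kinase GCN2, fell by 0.57. Of the other kinases, also named after their values were seen, EIF2AK4 (GCN2) fell by 0.38 in PBS cells (adjusted p = 0.000190), while EIF2AK1 (HRI) differed by 0.13 (adjusted p = 0.0926) and EIF2AK3 (PERK) by 0.08 (adjusted p = 0.566).

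Of 12 other ATF, CREB and C/EBP factors tested, 4 rose, 1 fell and 7 did not pass in PBS cells, where 24.2% of all genes rose and 26.9% fell. Their median was 0.16, against 0.0043 over all genes. CREM rose by 0.76, CREB3L1 by 0.55 and CREB3L2 by 0.30, and CREB1 fell by 0.36 on the log2 scale. Of 14 genes of the ATF6 and XBP1 branches, the other arms of the unfolded protein response, 9 rose and 0 fell in PBS cells, 13 rose after cNSF-HA and 11 after fNSF-HA, against 24.2%, 24% and 19.2% of all genes. No gene passed the interaction test in limma, so these counts are not shown to differ between pre-incubations. The median in PBS cells was 0.52, with HSPA5, the chaperone BiP, at 1.44, XBP1 at 1.14 and ERN1, the sensor IRE1, at 0.69. All 5 targets of NRF2, listed with the oxidant in mind, rose in PBS cells, among them HMOX1 (5892 ± 227 to 45959 ± 3885, log2 2.96), TXNRD1 (1.56) and NQO1 (1.29). The same contrast holds the later collection and medium change, so this rise is no separate check of the oxidant. After cNSF-HA 4 of the 5 rose and after fNSF-HA 5. SRXN1, the reductase sulfiredoxin, named after its values were seen, differed by 2.35 in PBS cells, by 0.67 after cNSF-HA (adjusted p = 0.0546) and by 0.86 after fNSF-HA (adjusted p = 0.0191), at a mean of only 21.1 normalized counts. The lists were written with earlier results of these data known and were not tested as sets.

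**Figure D3:**
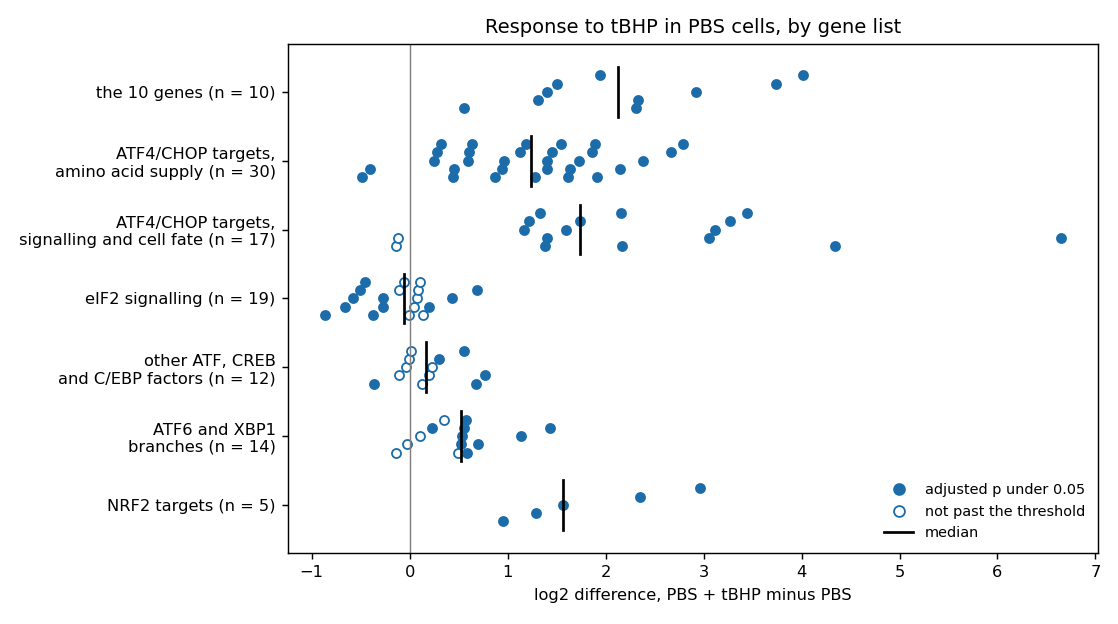
Log2 difference between PBS + tBHP and PBS (horizontal axis) for each tested gene of the 10 genes and 6 lists (rows); filled points passed the adjusted p threshold, open points did not, and the black line is the median. Both lists of ATF4 and CHOP targets lie mostly right of 0, up to GDF15 at 6.65, while the eIF2 signalling genes lie on both sides with a median of -0.06.

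Without tBHP, none of the 10 genes differed between pre-incubations in limma fitted to the 9 libraries without tBHP. Of all genes tested, 0% differed between cNSF-HA and PBS, 0.139% between fNSF-HA and PBS and 6.88% between cNSF-HA and fNSF-HA. edgeR and DESeq2 on the recovered reads also called 0 of the 10 in each. CEBPB came closest, with cNSF-HA (427 to 438) above PBS (369.8 to 377) in every library. The difference was 0.21 on the log2 scale (95% interval 0.08 to 0.34, unadjusted p = 0.00190, adjusted p = 0.175 in limma). CEBPB in cNSF-HA also lay above fNSF-HA (384 to 417) in every library, by 0.13 (unadjusted p = 0.0499, adjusted p = 0.242), and in fNSF-HA above PBS, by 0.08 (adjusted p = 0.764). With the GC and length trend removed these CEBPB differences were 0.14 for cNSF-HA against PBS, -0.02 for cNSF-HA against fNSF-HA, where the direction turned, and 0.16 for fNSF-HA against PBS. CEBPG in fNSF-HA (816 to 862) lay above PBS (700.1 to 788) in every library, by 0.16 (95% interval 0.05 to 0.26, unadjusted p = 0.00430, adjusted p = 0.539). At an unadjusted p under 0.05 stood 1 of the 10 genes in each of the 3 comparisons, against 12%, 7.71% and 20.6% of all genes in cNSF-HA against PBS, fNSF-HA against PBS and cNSF-HA against fNSF-HA.

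Groups did not overlap for 1 of the 10 genes between cNSF-HA and PBS, 2 between fNSF-HA and PBS and 1 between cNSF-HA and fNSF-HA, against 15.2%, 14% and 25% of all genes (6.89%, 9.17% and 7.91% with the first group higher). For ATF4 the intervals were narrow: cNSF-HA minus PBS was 0.03 (95% interval -0.04 to 0.10), fNSF-HA minus PBS 0.00 (-0.06 to 0.07) and cNSF-HA minus fNSF-HA 0.03 (-0.04 to 0.10). PPP1R15A was as narrow (cNSF-HA minus PBS 0.04, -0.03 to 0.11), while ATF3, with few reads, allowed much more (cNSF-HA minus fNSF-HA 0.29, -0.11 to 0.70). Of the 97 tested genes on the lists, 5 differed between cNSF-HA and fNSF-HA, all lower in cNSF-HA: SEL1L by -0.15, EIF2AK2 by -0.14, EIF2S1 by -0.13, SLC38A2 by -0.12 and MTHFD2 by -0.12. That is 5.15% of them, against 6.88% of all genes, of which 5.15% were lower and 1.72% higher in cNSF-HA. Under TMM scaling the all-gene split was 343 higher against 315 lower.

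After tBHP, 0 of the 10 genes differed between pre-incubations in limma fitted to the 9 libraries after tBHP, by edgeR or by DESeq2 on the same libraries, and 0% of all genes did in limma. At an unadjusted p under 0.05 stood 0 of the 10 for cNSF-HA + tBHP against PBS + tBHP, 2 for fNSF-HA + tBHP against PBS + tBHP and 1 for cNSF-HA + tBHP against fNSF-HA + tBHP, against 2.41%, 8.07% and 12.2% of all genes. ATF5 was lower in fNSF-HA + tBHP (508 to 669) than in PBS + tBHP (673 to 826) in every library, by -0.31 (95% interval -0.60 to -0.01, adjusted p = 0.557), and than in cNSF-HA + tBHP (709 to 824), by 0.32 (0.03 to 0.62, adjusted p = 0.376). Against PBS + tBHP the ATF5 difference was -0.18 without fNSF-HA + tBHP replicate 2, -0.38 without replicate 3 and -0.02 with a trend with GC content and length removed from each library. It was the only 1 of the 10 without overlap in either comparison, against 12% and 13.4% of all genes, and 0 were without overlap between cNSF-HA and PBS after tBHP, against 9.57%. DESeq2 fitted to all 18 libraries, a setting chosen after seeing the data, called ATF5 between cNSF-HA + tBHP and fNSF-HA + tBHP (0.32, adjusted p = 0.0462), among 923 genes in all.

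CEBPB in fNSF-HA + tBHP was lower than in PBS + tBHP by -0.38 (95% interval -0.72 to -0.03, unadjusted p = 0.0339, adjusted p = 0.557), although the groups overlapped. That CEBPB difference was -0.25 without fNSF-HA + tBHP replicate 2, -0.51 without replicate 3, and turned to 0.06 with the GC and length trend removed. Among the rest, CHAC1 and NUPR1 had the widest intervals, cNSF-HA + tBHP minus fNSF-HA + tBHP being 0.30 (-0.14 to 0.74) and 0.31 (-0.08 to 0.70). ATF4 (0.07, -0.14 to 0.29) and DDIT3 (-0.06, -0.38 to 0.25) had intervals on both sides of 0. For none of the 10 did the tBHP response itself differ between pre-incubations by the interaction test on all 18 libraries, nor did it for any of the 13686 genes in limma or edgeR, while DESeq2 called 6 genes, none of them among the 10, in fNSF-HA against PBS. Unadjusted p under 0.05 was reached by CEBPB alone, whose rise was smaller in fNSF-HA than in PBS cells by -0.46 (95% interval -0.82 to -0.10, unadjusted p = 0.0153, adjusted p = 0.667), and by 4.06%, 6.88% and 3.89% of all genes in cNSF-HA against PBS, fNSF-HA against PBS and cNSF-HA against fNSF-HA. The CEBPB interaction was -0.34 without fNSF-HA + tBHP replicate 2, -0.60 without replicate 3 and -0.10 with the GC and length trend removed, with an adjusted p of 0.0670 to 0.9997 over the settings tried.

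**Figure D4:**
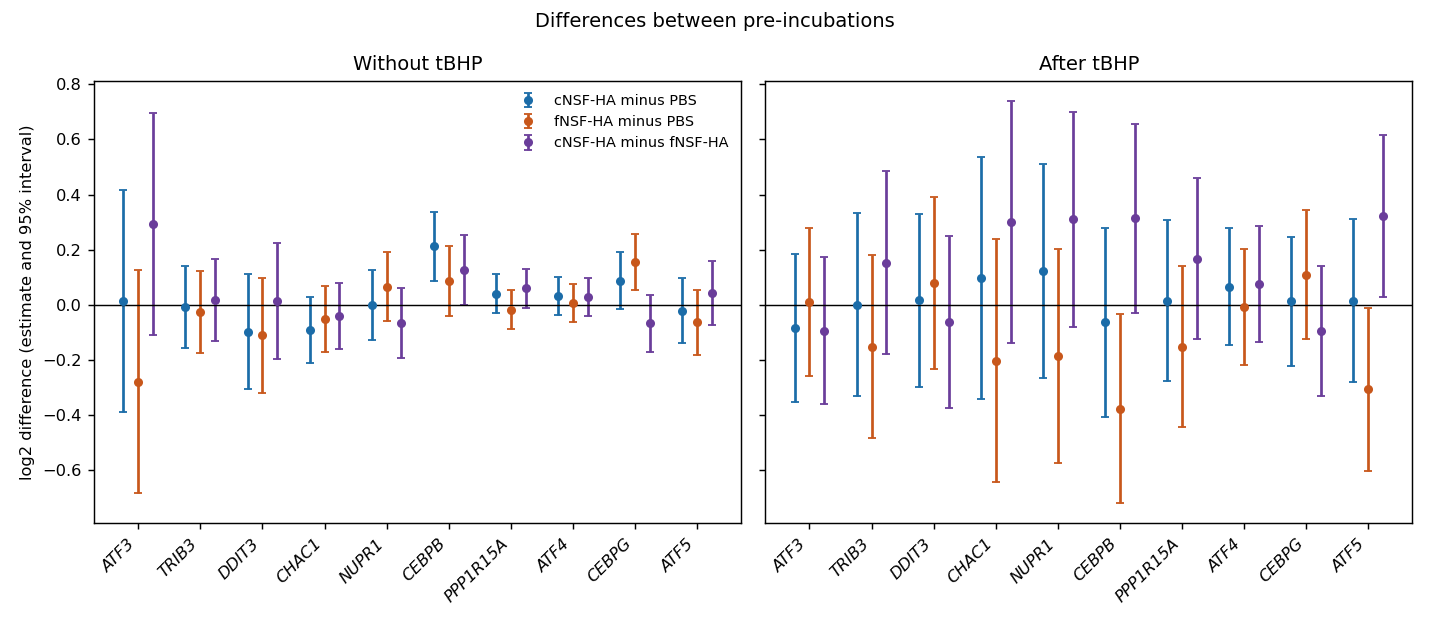
Log2 differences between pre-incubations (vertical axis, estimate and 95% interval of limma) for the 10 genes without tBHP (left) and after it (right), as cNSF-HA minus PBS (blue), fNSF-HA minus PBS (orange) and cNSF-HA minus fNSF-HA (purple). None passed the adjusted threshold, and the intervals are wider after tBHP for every gene but ATF3, up to -0.14 to 0.74 for CHAC1.

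Part of the lower values in fNSF-HA + tBHP lay in 1 library, in which deviations also followed base composition. For ATF5 all 3 fNSF-HA + tBHP libraries were below the other 6 tBHP libraries, and for CEBPB replicates 1 and 2 were. Replicate 2 of that group was the lowest of the 9 tBHP libraries for ATF4, ATF5, CEBPB, TRIB3, CHAC1, NUPR1 and PPP1R15A and the highest for CEBPG. The median GC content of the transcripts was 41.9% for CEBPG, 50.6% for DDIT3, 50.9% for ATF3, 55.4% for ATF4, 57.7% for PPP1R15A and 60.7% to 66.2% for NUPR1, CHAC1, TRIB3, ATF5 and CEBPB, and 9 of the 10 genes were above the median of the genes tested (49.5%). In that library, CEBPG stood 0.19 above its mean over the 9 tBHP libraries on the log2 scale, ATF3 0.09 above and DDIT3 at it. The other 7 stood below theirs, ATF4 by -0.14, PPP1R15A by -0.36, TRIB3 by -0.40, ATF5 by -0.47, CEBPB by -0.48, NUPR1 by -0.54 and CHAC1 by -0.69. Over 1253 genes with a GC content of at least 61.9%, the median deviation in the same library was -0.79. A trend with GC content and length described 66.7% of the variance of its deviations, against 0.519% to 43.1% in the other 8 tBHP libraries. Libraries of the other groups deviated the opposite way. Over the same 1253 genes the median deviation was 0.33 in cNSF-HA + tBHP replicate 3 (27.2% of variance) and 0.31 in PBS + tBHP replicate 1 (43.1%).

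Without fNSF-HA + tBHP replicate 2, cNSF-HA + tBHP minus fNSF-HA + tBHP went from 0.30 to 0.04 for CHAC1, from 0.15 to 0.00 for TRIB3, from 0.31 to 0.12 for NUPR1, from 0.32 to 0.19 for ATF5 and from 0.31 to 0.19 for CEBPB. Without replicate 3 of the same group the differences were instead larger, at 0.48 for CHAC1, 0.29 for TRIB3, 0.45 for NUPR1, 0.39 for ATF5 and 0.45 for CEBPB. With the trend of each library with GC content and length removed (deviations from the mean of the same tBHP state, which also takes out a trend shared by a whole group), the same difference was -0.06 for CHAC1, -0.21 for TRIB3, 0.01 for NUPR1, -0.06 for ATF5 and -0.20 for CEBPB. None of the 10 passed the threshold in limma under any of these 3 settings. The CEBPB difference was also smaller, at 0.18, without cNSF-HA + tBHP replicate 3, so it did not rest on the fNSF-HA + tBHP libraries alone. Because deviations were taken within a tBHP state, removal of the trend cannot change the mean tBHP response over the 3 pre-incubations, and a GC trend shared by all tBHP libraries was not removed. Reads on mitochondrial genes made up 3.51% of fNSF-HA + tBHP replicate 2, the highest share of the 18. The share was 2.69% to 3.16% in the other 8 tBHP libraries and 2.48% to 2.64% in the 9 without tBHP, so it also moved with the tBHP response of the 10 genes without overlap. The part of mitochondrial share in these results was not tested.

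**Figure D5:**
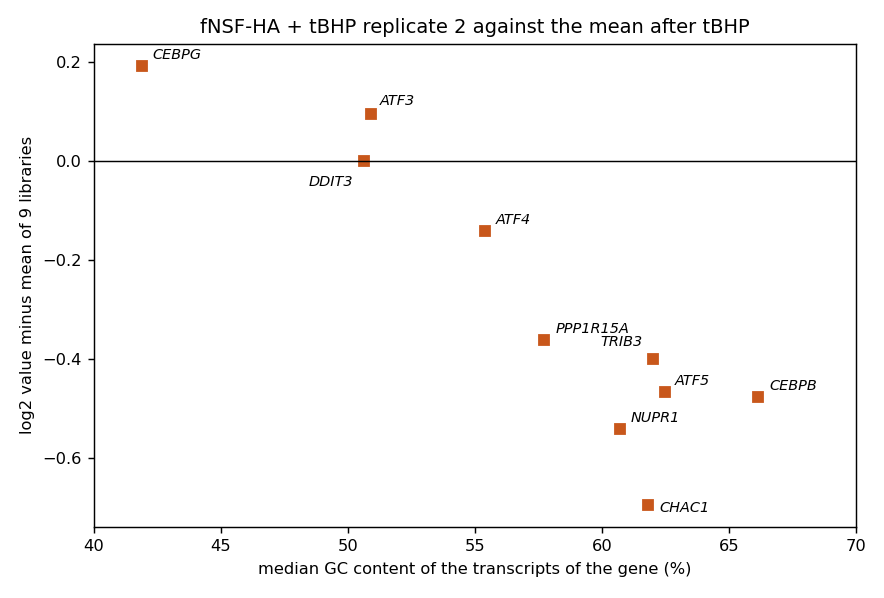
Log2 value of each of the 10 genes in fNSF-HA + tBHP replicate 2 minus its mean over the 9 tBHP libraries (vertical axis) against the median GC content of the transcripts of the gene (horizontal axis). CEBPG, at 41.9% GC, lies 0.19 above its mean and CHAC1, at 61.8%, lies 0.69 below it; the 10 points share 1 library.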

How the data were processed

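The authors made polyA libraries with the TruSeq RNA V2 kit and sequenced single-end reads of 100 nt. The submitters' processing notes name Trimmomatic 0.32, STAR 2.5.2b, featureCounts (Subread 1.5.0-p3), DESeq2 and the build GRCh38.p7; the annotation release and strand setting are not given in the sources used here. The deposited signal is, per gene, the read count divided by the DESeq2 size factor of the library. In every library 100% of values were whole reads within 0.01 of a read, so reads could be recovered. A p-value, a q-value and a rank column of the authors were not used.

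Tests used limma (version 3.58.1, under R 4.3.3) on log2(value + 1), 13686 genes with a mean of at least 10, Benjamini-Hochberg adjustment. The pseudocount understates fold changes of low genes. The tBHP responses and interactions were fitted to all 18 libraries, the HA comparisons to the 9 libraries of the same tBHP state, because the spread differed between states. Groups came from the library labels. edgeR 4.0.16 (quasi-likelihood test), DESeq2 1.42.0, other pseudocounts, filters, TMM scaling, sample sets, a replicate block, removal of a trend with GC content and length (natural splines, GENCODE 29, 12528 genes or 91.5%) and each library left out were the alternatives. The limma, edgeR and DESeq2 fits were tested on simulated counts for some of the comparisons. The interactions, the replicate block, the trend removal and the sequence, length and ratio steps were not tested in this way. The 10 genes and the lists were chosen with earlier results of these data known. In each list, the named genes are the 3 largest rises and the 2 largest falls in PBS cells past the threshold with a mean of at least 100 and no overlap between groups. For ATF4, DDIT3 and ATF3, the 3 genes with the most alike pattern are named.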

Additional observations from a re-analysis of the deposited data

How the results depend on the processing

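The 10 genes were called in each tBHP response, and 0 of the 10 in the 6 HA comparisons and 3 interactions, under the other settings tried, except for ATF5 in fNSF-HA cells. Its response was 0.31 (adjusted p = 0.0989) with only the 6 compared libraries and 0.24 to 0.30 in the 4 fits without 1 library that lost the call, against an adjusted p of 1.37e-05 to 0.0998 over all alternatives. An added fit, DESeq2 with all 18 libraries, called 1 of the 10 (ATF5) in cNSF-HA against fNSF-HA after tBHP. The adjusted p of ATF5 there ran from 0.0462 to 0.973 over the alternatives, and the cause was not tested. The ATF5 difference there was -0.06 with the GC trend removed. Of the values called in the main test, none changed sign. The GC correction, made within each tBHP state, leaves the mean tBHP response as it was by construction and is no check of it.

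Counts over all genes depended more on the settings. For cNSF-HA against fNSF-HA without tBHP, 941 genes passed in the main test, 0 with all 18 libraries in the fit, 71 with no filter, 105 with the GC trend removed, 422 with DESeq2 and 1439 with the replicate block. The block with the GC correction gave 261. Leaving out 1 library gave 120 (fNSF-HA replicate 2), 433 and 441 (cNSF-HA replicates 1 and 2) and 484 (fNSF-HA replicate 3). For the same comparison after tBHP, 0 genes passed, 1010 without fNSF-HA + tBHP replicate 3 and 923 with DESeq2 on all 18 libraries, and for fNSF-HA against PBS after tBHP it was 0, 19 with all 18 libraries and 442 with DESeq2 on all 18. For cNSF-HA against PBS without tBHP it was 0, 23 with DESeq2, 29 with no filter, 219 without PBS replicate 1 72 without cNSF-HA replicate 3 and 34 with the block and GC correction. For fNSF-HA against PBS without tBHP it was 19, and 0 to 8 with all 18 libraries, a minimum mean of 50, the GC trend removed, DESeq2, or without PBS or fNSF-HA replicate 2. With no filter, 12, 9 and 13 genes passed after tBHP (cNSF-HA against PBS, fNSF-HA against PBS, cNSF-HA against fNSF-HA), and DESeq2 on all 18 libraries gave 5 in the first. TMM scaling moved the split of higher against lower genes in PBS cells from 3317 against 3678 to 3945 against 3248, and in cNSF-HA against fNSF-HA without tBHP from 236 against 705 to 343 against 315.

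Whether replicate numbers mark pairs was not settled by the check made. The correlation of same-numbered libraries with and without tBHP was -0.04 to 0.10, against -0.11 to 0.08 for libraries of different number. Correlations this weak show no clear pairs but cannot exclude them. Across pre-incubations, same-numbered libraries correlated by -0.02 to 0.11 without tBHP and, with tBHP, by -0.02 to 0.14 for replicate 1, 0.07 to 0.33 for replicate 2 and -0.12 to 0.32 for replicate 3, so not every pair was over 0.1. With the replicate block, the 10 genes were called in each response and 0 in the other 9 comparisons, and all-gene counts were 7228, 7176 and 5944 for the responses, 280 and 38 for cNSF-HA and fNSF-HA against PBS without tBHP, and 0 after tBHP. With 3 libraries a group, the spread after tBHP limits the precision to the intervals given.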
